A study of Mus musculus with 10 samples.

Results

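Transcripts of 10 genes that are commonly used to recognise dural fibroblasts, or that encode proteoglycans and matrix proteins these cells secrete, were followed in RNA from sorted meningeal lymphatic endothelial cells (LECs). The genes were Pdgfra, Dcn, Lum, Fmod, Ogn, Mgp, Fn1, Aldh1a2, Crabp2 and Slc47a1, taken by symbol from a table of 55401 genes, and all 10 were found. The cells came from the meninges of female C57BL/6 mice aged 3 months, either naive (5 replicates) or exposed to sub-chronic variable stress (SCVS) for 6 days (5 replicates), a schedule of alternating foot shock, tail suspension and restraint. No transgene or drug separated the groups. Both groups were digested in the presence of actinomycin D, and each replicate was a pool of cells from 3 to 4 animals, so that p-values measure the spread between pools. LECs were sorted as CD45-CD31+podoplanin+ cells. The question the comparison addresses is how SCVS changes the transcripts of this sorted population.

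Fibroblasts of the dura lie in a collagen-rich connective tissue around its blood and lymphatic vessels, and they secrete much of the matrix there. Pdgfra encodes a receptor tyrosine kinase for platelet-derived growth factors that marks fibroblasts in many tissues. Dcn, Lum, Fmod and Ogn encode decorin, lumican, fibromodulin and osteoglycin, small leucine-rich proteoglycans that bind collagen and regulate the assembly of its fibrils. Meningeal fibroblasts express podoplanin but are not known for CD31, so the gate is meant to leave them out, whereas Mgp and Fn1 are known to be made by endothelial cells too.

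Sequencing gave 9984743 to 14094155 counts per replicate. At these depths 3 counts, used here as the floor of detection, correspond to 0.213 to 0.3005 counts per 1000000 (CPM), a floor that reflects counting error and not losses before amplification. Pan-endothelial and blood endothelial markers (9 genes, among them Pecam1, Cdh5 and Plvap) summed to between 4855 and 10940 CPM in 9 replicates and to 463 CPM in naive replicate 5, which therefore stood apart. Lymphatic markers (7 genes, among them Prox1, Lyve1 and Flt4) summed to 60.8 CPM in naive replicate 1, 184.9 in naive replicate 5, 439 in SCVS replicate 5 and 1019 to 3074 in the other replicates. Mmrn1, a secreted glycoprotein and the most abundant of them, had 165 to 25289 counts. Mural cell markers (9 genes) summed to 430 to 7716 CPM, led by Rgs5, a pericyte gene, and leukocyte markers (9 genes) to 14.7 to 570 CPM, led by Mrc1. Bone and cartilage markers (11 genes), led by Alpl, summed to 38.3 to 519.7 CPM, and Schwann and neural markers (8 genes), led by Mbp, to 89.1 to 1929 CPM. A list of 32 markers of meningeal fibroblasts and arachnoid cells, 9 of which are among the 10 genes, summed to 547 to 2898 CPM, with 15 to 27 of them above the floor in each replicate and Mgp the most abundant. Detection was uneven within that list. Of the 32 markers, 12 were above the floor in 9 or 10 replicates (in all 10 the collagen gene Col1a2, Foxc1, Gsn, Mgp, Ptgds and Serping1), 11 in 4 to 8 replicates, among them Pdgfra in 4, and 9 in 3 or fewer, among them Dpt (dermatopontin) in 2, Twist1 in 1 and Slc22a6 in 0. The cells that gave these reads were not identified. In such pooled RNA, fewer cells of a type and less RNA per cell cannot be told apart.

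**Figure D1:**
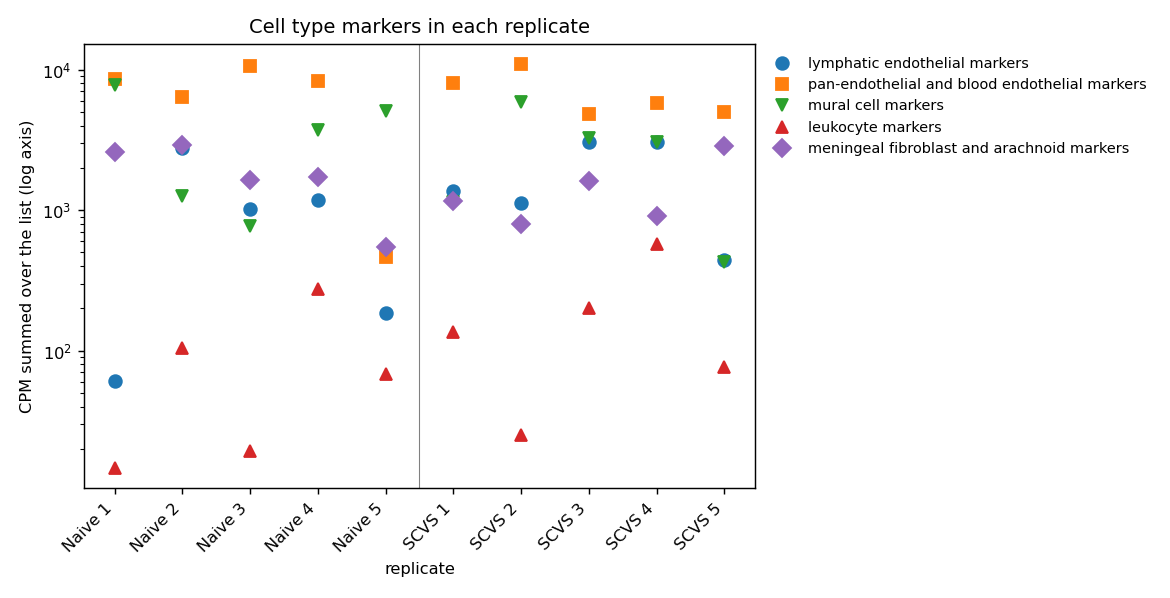
Summed CPM (vertical log axis) of 5 lists of cell type markers in each of the 10 replicates (horizontal axis), with each symbol 1 list in 1 replicate and a line between the groups. The endothelial list stands at 463 CPM in naive replicate 5 and at 4855 CPM or more in the other replicates.

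Summed over the 10 genes, 1140 CPM were found in naive replicate 1, 1703 in replicate 2, 1126 in replicate 3, 909.7 in replicate 4 and 115 in replicate 5. The sums in SCVS replicates 1 to 5 were 537, 254, 1457, 238 and 1972 CPM. The ranges of the groups overlapped almost completely, with means of 999 ± 575 CPM in naive and 891 ± 782 CPM in SCVS mice (SD, n = 5 per group). Of the 50 values in each group, 36 in naive and 38 in SCVS mice exceeded the floor of 3 counts. All 10 genes exceeded it in naive replicate 4 and SCVS replicate 5, against 4 genes in naive replicate 5 and 5 in naive replicate 3. Mgp or Dcn had the highest CPM of the 10 genes in 9 replicates, and Crabp2 had it in naive replicate 5.

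**Figure D2:**
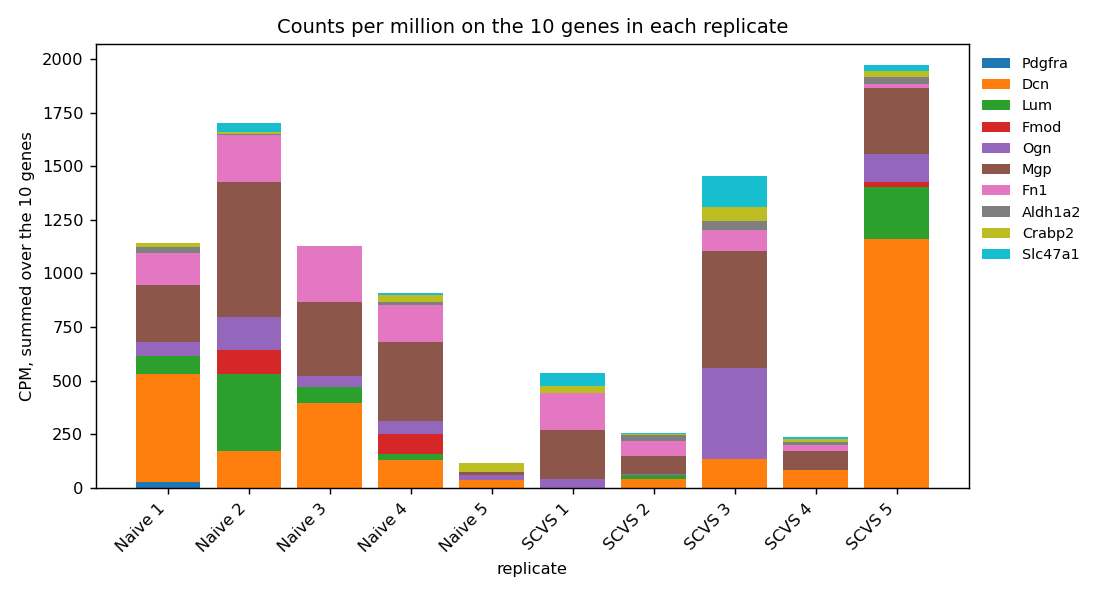
CPM summed over the 10 genes (vertical axis) in each replicate (horizontal axis), with each colour 1 gene. SCVS replicate 5, at 1972 CPM, is 58.8% Dcn, whereas SCVS replicate 1 has no Dcn and naive replicate 5 reaches 115 CPM in all.

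All 10 genes passed the filter on low counts (more than 5 counts in at least 3 of 10 replicates), and none passed a test for a difference between SCVS and naive mice. Each of them had an adjusted p of 1.00 in the quasi-likelihood test of edgeR (Benjamini-Hochberg), and 0 of the 14815 genes tested (0.0%) had an adjusted p under 0.1. Without adjustment, 460 genes of the whole table (3.1%) had a p under 0.05 and 0 of the 10 did, whose p lay between 0.186 for Pdgfra and 0.901 for Dcn. Other tools called 114 genes (DESeq2), 38 (edgeR's likelihood ratio test) and 3 (limma with voom) in the whole table, again 0 of the 10, and DESeq2's share was 0.814% of the genes it gave an adjusted p, with 4.72% at an unadjusted p under 0.05. It gave none to Pdgfra, whose counts its filter on outlying values removed. The CPM ranges of the groups overlapped for all 10 genes, whereas they did not overlap for 0.628% of the genes tested. In the exact permutation test of mean CPM (two-sided, 5 against 5) the smallest p among the 10 was 0.159, for Fn1, against 3.79% of all genes tested with a p under 0.05, where the smallest p this design allows is 0.00794.

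The log2 fold change of SCVS over naive was positive for 5 genes (Dcn, Ogn, Aldh1a2, Crabp2 and Slc47a1) and negative for 5 (Pdgfra, Lum, Fmod, Mgp and Fn1), with a median of −0.09 beside −0.03 over all genes tested. That median ran from −0.70 without SCVS replicate 3 to 0.58 without naive replicate 1, and it was −0.72 in limma with voom, where 7 of the 10 were negative. The signs were the same under each of the 3 other scalings tried. The median standard error (SE) of these log2 fold changes was 1.56, beside 1.42 over all genes tested. Leaving out naive replicate 5 changed the sign of Dcn only, to −0.10. The median then became −0.39, beside 0.04 over all genes tested, and the largest value in proportion to its standard error was that of Fn1, −1.41 (SE 0.58, adjusted p = 0.826 in edgeR).

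**Figure D3:**
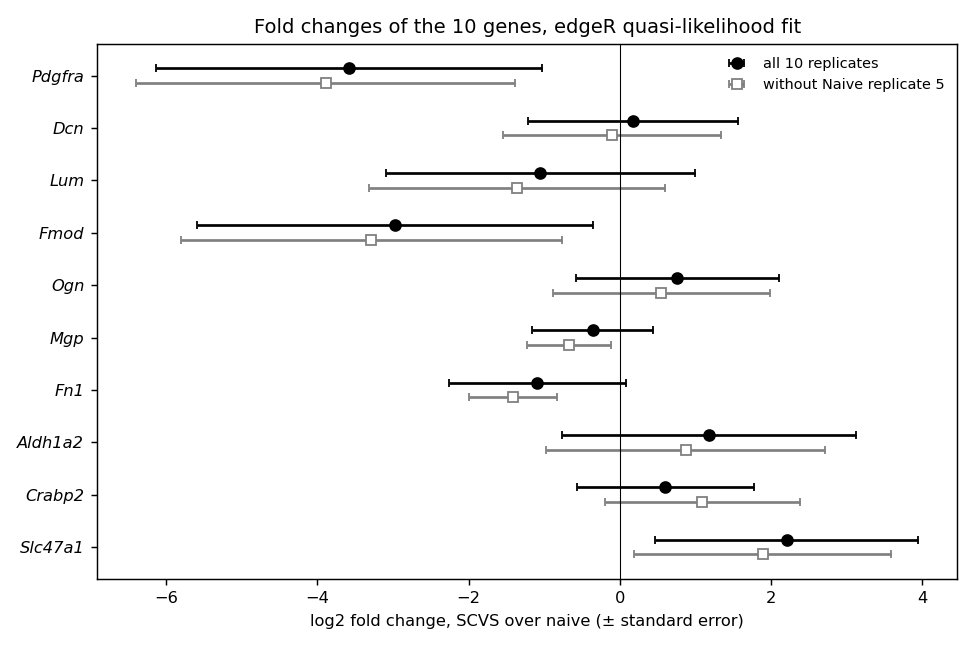
Log2 fold change of SCVS over naive (horizontal axis) for the 10 genes (vertical axis) in edgeR's quasi-likelihood fit, with bars of 1 standard error, for all 10 replicates (filled circles) and without naive replicate 5 (open squares). With all 10 replicates the values run from −3.58 for Pdgfra to 2.21 for Slc47a1. Without naive replicate 5 they run from −3.89 for Pdgfra to 1.89 for Slc47a1. No adjusted p was under 0.1 in either fit.

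RefSeq promoter windows were at hand for Pdgfra, Fmod, Ogn and Aldh1a2 among the 10 genes, and the 100 bases before each annotated start are shown because these genes include the 2 detected in the fewest replicates, Pdgfra and Fmod, and 1 of the most widely detected, Ogn. They are read 5′ to 3′ on the plus strand, on which all 4 genes lie, in GRCm38.p6, and capitals mark a match, on either strand, to one of 3 motifs, the TATA box (letters TATAAA), the CCAAT box (its own letters) or the GC box (letters GGGCGG), which do not overlap in the windows shown.
Pdgfra (chr5:75152151-75152250): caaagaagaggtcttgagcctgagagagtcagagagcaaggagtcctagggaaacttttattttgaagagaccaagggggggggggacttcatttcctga
Fmod (chr1:134037154-134037253): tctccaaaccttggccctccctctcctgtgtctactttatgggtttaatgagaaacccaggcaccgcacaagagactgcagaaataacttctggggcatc
Ogn (chr13:49607915-49608014): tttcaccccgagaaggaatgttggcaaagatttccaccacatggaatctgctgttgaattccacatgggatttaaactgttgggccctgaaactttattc
Aldh1a2 (chr9:71215689-71215788): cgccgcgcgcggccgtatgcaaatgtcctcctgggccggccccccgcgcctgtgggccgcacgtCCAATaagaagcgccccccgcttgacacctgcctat
The windows of Pdgfra, Fmod and Ogn were 49%, 50% and 43% G or C with 0, 1 and 1 CpG, and that of Aldh1a2 was 71.0% with 13, beside medians of 55.0% and 3 over all 32851 windows of this length. None of the 3 motifs was in the windows of Pdgfra, Fmod and Ogn, and the window of Aldh1a2 held 1 CCAAT box. Over all windows, 5.56% held a TATA box, 18.9% a CCAAT box and 24.7% a GC box.

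Pdgfra (ENSMUSG00000029231, chromosome 5, 75548316 to 75594229 in mm9, the build of all positions of genes given here) had naive counts of 286, 0, 0, 4 and 0 in replicates 1 to 5. It had 12, 0, 2, 1 and 13 counts in SCVS replicates 1 to 5. Naive replicate 1 thus held nearly all of its naive reads, and the other 9 replicates had at most 1.30 CPM. On average 5.55 ± 12.2 CPM were found in naive and 0.478 ± 0.572 CPM in stressed pools (SD, n = 5 per group), with an SCVS to naive log2 ratio of −3.58 (SE 2.55) that became 2.57 without naive replicate 1. In that replicate mural markers were at their highest, 7716 CPM, and lymphatic markers at their lowest, and their part in the Pdgfra value was not tested.

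All 6 genes of the PDGF family, ligands and receptors, were tested and 0 passed the threshold in edgeR, with 3 log2 fold changes above and 3 below 0 and a median of −0.05, which became 0.01 with total count scaling and ran from −0.34 without SCVS replicate 2 to 0.37 without naive replicate 1. Pdgfb and Pdgfd, whose ligands signal mainly through the other receptor, Pdgfrb, were detected in every replicate, at 143.7 ± 76.2 and 174 ± 127 CPM in naive and 157 ± 102 and 188 ± 92.0 CPM in SCVS mice (SD, n = 5 per group). Pdgfrb itself, the receptor of mural cells and fibroblasts, had the lowest log2 fold change among the other genes of the family, −1.81 (SE 2.39), with 1304, 68, 607, 0 and 0 counts in naive and 78, 1, 0, 0 and 457 in SCVS mice. Pdgfc, a ligand of PDGFRA, had the highest. Its counts were 0, 0, 0, 4 and 0 in naive and 0, 20, 225, 413 and 135 in SCVS mice. Its log2 fold change was 7.59 (SE 2.54), with an adjusted p of 0.964 in edgeR and 0.0494 in DESeq2. SCVS replicate 1, with 0 counts, lay within the naive range.

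Dcn (ENSMUSG00000019929, chromosome 10, 96942245 to 96980777) had naive counts of 5256, 2198, 5547, 1753 and 475 in replicates 1 to 5. It had 0, 491, 1660, 1115 and 11569 counts in SCVS replicates 1 to 5. The SCVS group held both the highest and the lowest value of decorin, at 1159 and 0 CPM, and the other 3 SCVS replicates, at 40.3 to 134.7 CPM, lay within the naive range of 35.6 to 504 CPM. Group means were 248 ± 195 CPM (naive) and 284 ± 492 CPM (SCVS, SD, n = 5 per group). For Dcn the SCVS to naive log2 ratio was 0.18 (SE 1.39). It was −1.96 without SCVS replicate 5, −0.10 without naive replicate 5 and −2.78 in limma with voom.

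Lum (ENSMUSG00000036446, chromosome 10, 97028135 to 97035337) had 867, 4587, 1034, 360 and 1 counts in naive and 0, 237, 0, 1 and 2417 counts in SCVS replicates 1 to 5. Lumican was thus above the floor in 4 naive and 2 SCVS replicates, and naive replicate 5 lay among the SCVS replicates without it. SCVS replicates averaged 52.3 ± 106 CPM and naive replicates 109 ± 144 CPM (SD, n = 5 per group), and the log2 fold change of −1.05 (SE 2.05) became 0.15 without naive replicate 2.

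Fmod (ENSMUSG00000041559, chromosome 1, 135933831 to 135944854) had 0, 1426, 0, 1265 and 0 counts in naive and 2, 0, 23, 0 and 232 counts in SCVS replicates 1 to 5. Fibromodulin was at 112 and 93.2 CPM in naive replicates 2 and 4 and at 0 in the other naive replicates, whereas SCVS values ran from 0 to 23.2 CPM. On average 41.0 ± 56.5 CPM were found in naive and 5.05 ± 10.2 CPM in stressed pools (SD, n = 5 per group). For Fmod the SCVS to naive log2 ratio was −2.97 (SE 2.62). It was −6.26 without SCVS replicate 5 and turned to 2.34 with the replicate number as a block.

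Ogn (ENSMUSG00000021390, chromosome 13, 49703440 to 49719869) had 680, 1991, 712, 876 and 348 counts in naive and 597, 65, 5180, 0 and 1331 counts in SCVS replicates 1 to 5. Osteoglycin was steadier in naive mice, at 26.1 to 156 CPM, than in SCVS mice, at 0 to 420 CPM, a difference in spread that was not tested. Group means were 72.6 ± 49.2 CPM (naive) and 120 ± 176 CPM (SCVS, SD, n = 5 per group), and the log2 fold change of 0.76 (SE 1.34) became −0.68 without SCVS replicate 3. The gene lies within Cenpp, which is on the opposite strand and shares no exon with it.

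These 4 proteoglycans were not found in the same replicates. SCVS replicate 1 had no Dcn or Lum but 597 Ogn counts, SCVS replicate 4 had 1115 Dcn counts and no Ogn, and naive replicate 3 had the highest naive Dcn count and no Fmod. Of the 17 small leucine-rich proteoglycan genes, 11 were tested and 0 passed the threshold in edgeR, 4 with a log2 fold change above 0 and 7 below it, with a median of −0.41. This median was −1.13 without SCVS replicate 5, 0.03 without naive replicate 2 and −2.78 in limma with voom. Bgn, Prelp and Ecm2, which encode biglycan, prolargin and a related matrix protein, were above the floor in all 10 replicates. The highest log2 fold change among genes other than the 4 was that of Chad (chondroadherin), 2.96 (SE 2.94), from 132 counts in naive replicate 4 and 168 and 605 in SCVS replicates 4 and 5. The lowest was that of Aspn (asporin), −2.57 (SE 2.07), with 67.0 ± 68.0 CPM in naive and 11.2 ± 19.9 CPM in SCVS mice (SD, n = 5 per group). In the RefSeq gene order of GRCm38.p6, Dcn and Lum are followed by Kera and Epyc, Ogn is next to Omd, Aspn and Ecm2, and Fmod is next to Prelp and Optc. Neighbours were not detected alike, since Kera had no count in any replicate, Epyc had 472 and 521 counts in SCVS replicates 1 and 5 and 0 in the others, and Optc had 4 counts in SCVS replicate 3 and 0 in the others.

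Mgp (ENSMUSG00000030218, chromosome 6, 136820957 to 136824326), matrix Gla protein, an inhibitor of calcification, had 2765, 8035, 4843, 5004 and 152 counts in naive and 3217, 1026, 6775, 1139 and 3066 counts in SCVS replicates 1 to 5. Alone among the 10 genes it was above the floor in every replicate, with naive replicate 5 the lowest. SCVS replicates averaged 251 ± 192 CPM and naive replicates 324 ± 222 CPM (SD, n = 5 per group), and its log2 fold change of −0.36 had the smallest standard error of the 10, 0.80. Without naive replicate 2 it was 0.01.

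Fn1 (ENSMUSG00000026193, chromosome 1, 71632094 to 71699774), fibronectin, an adhesive glycoprotein of the matrix, had 1553, 2759, 3595, 2340 and 0 counts in naive and 2397, 856, 1193, 413 and 173 counts in SCVS replicates 1 to 5. In 4 naive replicates it lay at 149 to 257 CPM, and SCVS replicate 1, at 170 CPM, was within that range while the other 4 SCVS replicates, at 17.3 to 96.8 CPM, were below it. Naive replicate 5, in which endothelial markers were also at their lowest, had no Fn1 read. On average 159 ± 98.1 CPM were found in naive and 77.1 ± 60.7 CPM in stressed pools (SD, n = 5 per group). For Fn1 the SCVS to naive log2 ratio was −1.09 (SE 1.17). Exons of Apol7d on the opposite strand overlap the gene.

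All 24 genes of the elastic fibre and matricellular list were tested and 0 passed the threshold in edgeR, 8 with a log2 fold change above 0 and 16 below it, with a median of −0.40 (−0.04 without naive replicate 2). Fbn2, a fibrillin, had the highest, 2.16 (SE 1.9), from at most 57 counts in a replicate, and Matn2, matrilin 2, the lowest, −2.84 (SE 1.83). Matn2 had 152, 920, 275, 44 and 417 counts in naive and 1, 265, 3, 4 and 0 in SCVS mice. Only SCVS replicate 2 lay within the naive range. Of 9 integrin genes for fibronectin and related ligands, 7 were tested and 0 passed in edgeR, with a median of 0.18. It was −0.14 without naive replicate 5 or SCVS replicate 1 and 0.83 in limma with voom. The highest was Itgb3, 2.67 (SE 2.24), and the lowest Itgb8, a subunit that activates latent TGF-beta, with 287, 1, 16, 174 and 1286 counts in naive and 0, 0, 0, 7 and 1 in SCVS mice. Its log2 fold change was −7.68 (SE 2.35), with an adjusted p of 0.964 in edgeR and 0.00448 in DESeq2.

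Aldh1a2 (ENSMUSG00000013584, chromosome 9, 71063596 to 71144050), the retinaldehyde dehydrogenase that makes retinoic acid in the meninges, had 322, 71, 0, 150 and 0 counts in naive and 0, 315, 497, 165 and 330 counts in SCVS replicates 1 to 5. It was above the floor in 3 naive and 4 SCVS replicates, with the 4 SCVS values at 12.47 to 40.3 CPM. Group means were 9.50 ± 12.8 CPM (naive) and 22.3 ± 16.2 CPM (SCVS, SD, n = 5 per group). For Aldh1a2 the SCVS to naive log2 ratio was 1.18 (SE 1.95), and without naive replicate 1 it was 2.45.

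Crabp2 (ENSMUSG00000004885, chromosome 3, 87752588 to 87757298), which carries retinoic acid to its nuclear receptors, had 150, 120, 1, 440 and 551 counts in naive and 463, 92, 820, 202 and 262 counts in SCVS replicates 1 to 5. Its highest naive value was in naive replicate 5, at 41.3 CPM, which held for no other of the 10. SCVS replicates averaged 29.7 ± 22.8 CPM and naive replicates 19.5 ± 17.0 CPM (SD, n = 5 per group). For Crabp2 the SCVS to naive log2 ratio was 0.60 (SE 1.17), and without SCVS replicate 3 it was 0.05.

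Of 19 genes of the retinoic acid pathway, 17 were tested and 0 passed the threshold in edgeR, 11 with a log2 fold change above 0 and 6 below it, with a median of 0.40 (0.18 without SCVS replicate 5, 0.87 without naive replicate 5). The highest was that of Rara, a nuclear receptor for retinoic acid, with 15, 19, 25, 94 and 3 counts in naive and 661, 391, 60, 133 and 340 in SCVS mice. By count, SCVS replicate 3 lay within the naive range. The mean was 2.37 ± 2.61 CPM in naive and 25.6 ± 17.6 CPM in SCVS mice (SD, n = 5 per group). Its log2 fold change was 3.38 (SE 1.27), with an adjusted p of 1.00 in edgeR and 0.0549 in DESeq2. The lowest was that of Aldh1a3, another retinaldehyde dehydrogenase, −2.0 (SE 2.17).

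Slc47a1 (ENSMUSG00000010122, chromosome 11, 61156902 to 61191847) encodes an exporter of organic cations and is in the list of meningeal fibroblast and arachnoid markers. It had 2, 558, 1, 155 and 1 counts in naive and 874, 13, 1803, 119 and 292 counts in SCVS replicates 1 to 5. It was above the floor in 2 naive and all 5 SCVS replicates, and its naive values of 43.7 and 11.4 CPM lay inside the SCVS range of 1.07 to 146 CPM. On average 11.1 ± 18.9 CPM were found in naive and 49.5 ± 59.0 CPM in stressed pools (SD, n = 5 per group). For Slc47a1 the SCVS to naive log2 ratio was 2.21 (SE 1.74), the highest of the 10 genes. It stayed above 0 in all alternatives, between 1.21 and 6.24, with an adjusted p never under 0.518 in any tool.

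**Figure D4:**
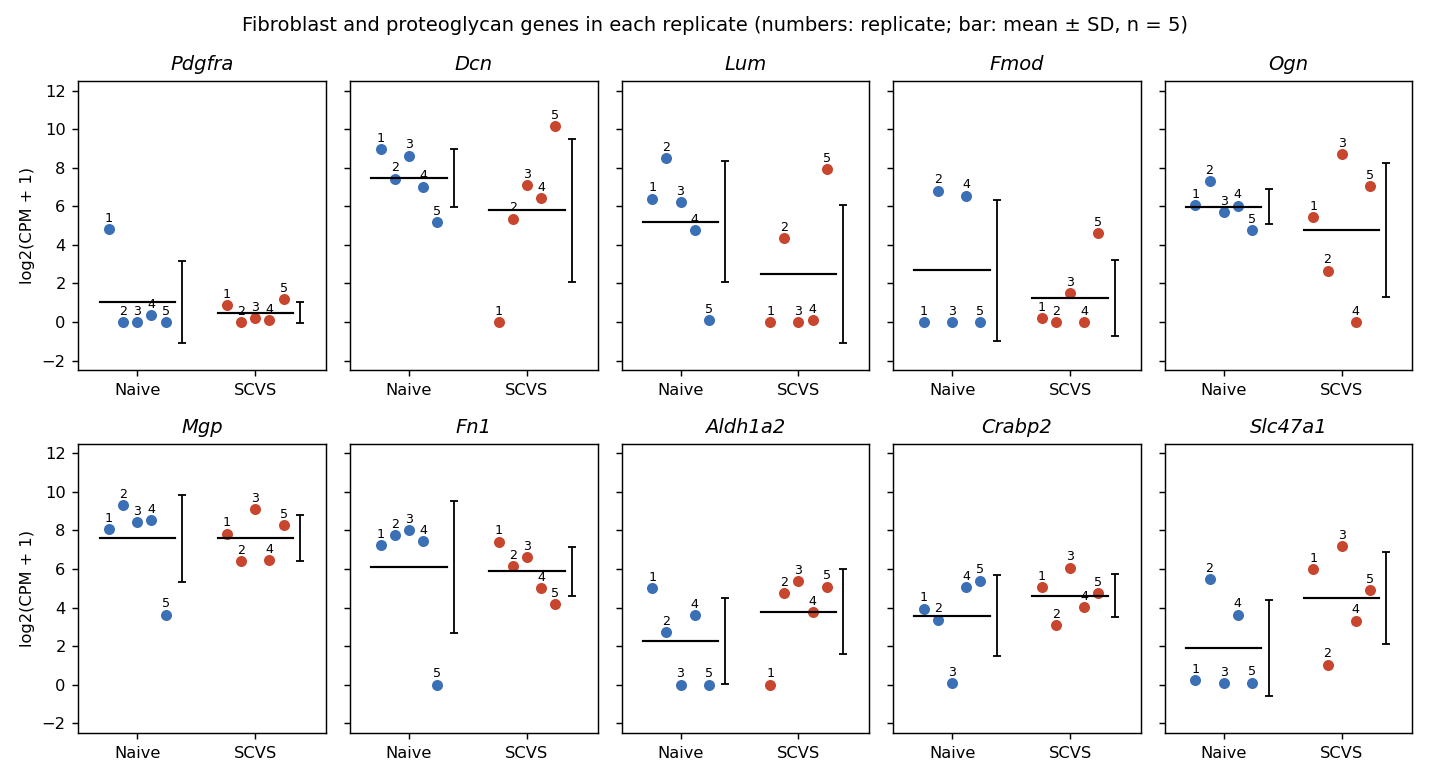
Log2(CPM + 1) (vertical axis) of each of the 10 genes in naive and SCVS replicates (horizontal axis), with each point 1 replicate marked by its number, the horizontal bar the mean and the error bar 1 SD (n = 5). Values at or near 0 stand beside high values in both groups, for example Dcn at 0 in SCVS replicate 1 and at 1159 CPM in SCVS replicate 5.

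Divided by the length of exons in GENCODE M1, mean levels over the 10 replicates were 481 ± 334 CPM per kilobase for Mgp and 137 ± 182 for Dcn, followed by Lum at 38.8 ± 59.3 and Ogn at 37.95 ± 49.0 (SD, n = 10). Crabp2, Fn1, Slc47a1, Aldh1a2 and Fmod lay between 18.6 and 6.96 CPM per kilobase, and Pdgfra was lowest at 0.447 ± 1.28. Mgp exceeded Dcn in 9 of 10 replicates and Dcn exceeded Lum in 8, but for each neighbouring pair in this order the mean difference in level was smaller than its SD over the replicates. The order from Lum down to Aldh1a2 was not kept, as each exceeded the next in 5 to 7 of 10 replicates.

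Large swings within a group were common over all genes tested, these 10 included. In naive mice 4 of the 10 genes had 0 counts in one replicate and at least 100 in another, beside 34.8% of all genes tested, and in SCVS mice 5 did, beside 32.5%. Among 9975 genes with a mean of at least 10 CPM, those whose log2(CPM + 1) followed that of Dcn most closely over the 10 replicates included Grb14, which encodes a signalling adaptor, N6amt1, Phf12 and Lrrc49. Pearson's r was 0.906 to 0.965 for these 4, given as a description. Each of the 4 had 0 counts in SCVS replicate 1, as Dcn did. Without that replicate r was 0.685 to 0.884, or 0.609 to 0.847 without SCVS replicates 1 and 5. Among the 10 genes, Lum came closest to Dcn with an r of 0.667, ranking 249 of these genes, and r was −0.29 for Crabp2 and −0.21 for Slc47a1.

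The fibrillar collagens, which decorin, lumican and fibromodulin bind, had 8 of 9 tested log2 fold changes below 0 and a median of −1.89, with 0 past the threshold in edgeR. The median was −2.40 without SCVS replicate 1 and −1.02 without naive replicate 2, which held 3941 of the Col3a1 counts. The lowest was Col3a1 at −4.14 (SE 1.88) and the highest Col5a3 at 1.30 (SE 2.06). Of 20 other proteoglycan genes, 16 were tested, 4 with a log2 fold change above 0 and 12 below it, with a median of −0.90 and 0 past the threshold in edgeR. That median was −0.24 without naive replicate 5, and it turned to 0.32 in limma with voom and to 0.36 with the replicate number as a block. The highest was Cspg4, a proteoglycan of pericytes, 3.13 (SE 2.02), and the lowest Gpc3, a glypican, −7.15 (SE 2.80), which had 490, 342, 1, 14 and 0 counts in naive and 7, 0, 0, 0 and 0 in SCVS mice. Acta2, the smooth muscle actin of mural cells, had 15898, 6459, 670, 201 and 276 counts in naive and 1194, 172, 250, 21 and 151 in SCVS mice. Its log2 fold change was −4.04 (SE 1.41), with an adjusted p of 0.964 in edgeR and 0.06 in DESeq2. Acta2 is a gene of the mural list and of neither list above, and whether its change bears on their medians was not tested. Median log2 fold changes of the cell type lists were 0.91 for lymphatic (7 tested), −0.08 for endothelial (9), −1.99 for mural (8), 1.05 for leukocyte (6), −0.25 for bone and cartilage (6), −0.24 for Schwann and neural (7) and −0.39 for fibroblast and arachnoid markers (26). Leaving out 1 replicate moved the mural median to between −2.66 (without SCVS replicate 2) and −0.67 (without naive replicate 1), and the leukocyte median to between 0.46 (without SCVS replicate 4) and 4.73 (without naive replicate 4). The Schwann and neural median turned to 0.74 without naive replicate 5, the bone and cartilage median to 0.17 without naive replicate 4, the endothelial median to 0.10 without naive replicate 3 or SCVS replicate 4, and the fibroblast and arachnoid median to 0.08 without naive replicate 1. No gene of these lists passed the threshold in edgeR. Of the genes in the 14 lists, DESeq2 called Itgb8, Pdgfc, Rara, Acta2 and Ptprc, beside 0.814% of all genes it gave an adjusted p. Acta2 and Ptprc were named after their values were seen. The lists overlap and were chosen with earlier results of these data known, so their count was not set against that share. Ptprc, which encodes CD45 and so the marker sorted against, had 1, 0, 1, 1 and 0 counts in naive and 27, 0, 0, 113 and 404 in SCVS mice.

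**Figure D5:**
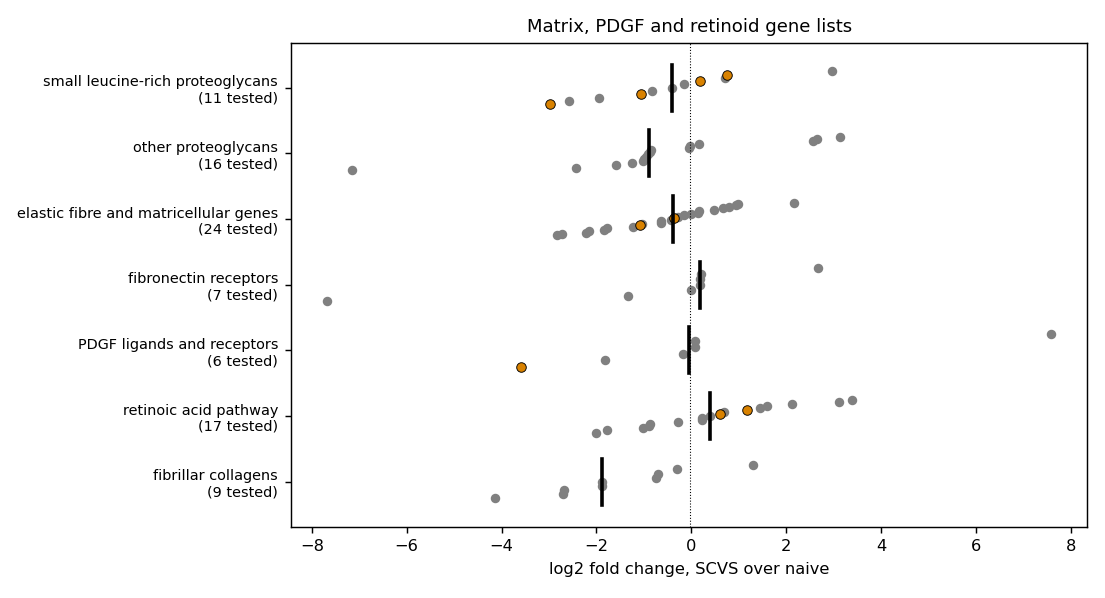
Log2 fold change of SCVS over naive (horizontal axis) for the tested genes of 7 lists (vertical axis), with each point 1 gene, orange points genes among the 10, thick bars the list medians and the dotted line the median of all genes tested, −0.03. Medians run from −1.89 for fibrillar collagens to 0.40 for the retinoic acid pathway, and no point passed the threshold in edgeR.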

How the data were processed

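Raw read counts per gene for 10 replicates were deposited by the authors. Their processing notes name cutadapt 1.9.1, HISAT2 2.0.1, HTSeq 0.6.1 and DESeq2 with GRCm38, while the study's methods name mm9. The strand setting of the counting was not given in the sources used here. RNA was amplified before sequencing, so counts are not independent molecules.

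A gene was tested if its count exceeded 5 in 3 or more of the 10 replicates, using edgeR 4.0.16 (quasi-likelihood, TMM scaling, R 4.3.3), with Benjamini-Hochberg adjustment over all 14815 genes and a threshold of 0.1. The standard error is the size of the log2 fold change divided by the square root of F. CPM are counts over the total per replicate. Mean CPM were compared by an exact two-sided permutation test (252 arrangements). Alternatives were DESeq2 1.42.0, limma 3.58.1 with voom, other scalings and filters, a replicate block, a detected-gene covariate and leaving out each replicate. On simulated data with the real spread, edgeR recovered 36% of 200 genes changed by a log2 of 4 and DESeq2 63%, with 5 and 243 unchanged genes called among 13762.

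Gene positions and exon lengths came from GENCODE M1 by gene identifier (32589 of 55401 matched, and all 10 genes), and promoters and gene order from RefSeq GRCm38.p6. Figures and summaries were made with Python 3.11.15. The 10 genes and the 14 lists were chosen with earlier results of these data known. Beside the 10 genes, the text names the tested genes with the highest and lowest log2 fold change in each pathway list, the most abundant marker of each cell list and the genes most like Dcn (the first 5 by rank, of which 1 is not reported here).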

Additional observations from a re-analysis of the deposited data

Results flagged for a closer look

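In 6 of the 20 sets of 5 replicates (10 genes in 2 groups), the highest replicate lay farther from the next than Dixon's critical value of 0.71 for the gap over the range, and chance alone flags about 1 in 20 such sets of normally distributed values. Over all genes tested, 22.3% of 29502 such sets passed the same value. Pdgfra in naive replicate 1 had a ratio of 0.989, at 27.4 CPM with the next replicate at 0.295. Dcn, Lum and Fmod were each set apart by SCVS replicate 5. Their ratios were 0.884 for Dcn, at 1159 CPM with the next at 134.7, 0.9196 for Lum, at 242 CPM with the next at 19.5, and 0.9197 for Fmod, at 23.2 CPM with the next at 1.87. Lum and Slc47a1 were set apart by naive replicate 2, with ratios of 0.769 for Lum, at 359 CPM with the next at 83.2, and 0.74 for Slc47a1, at 43.7 CPM with the next at 11.4. SCVS replicate 5 had the fewest total counts of the 10 replicates, 9984743, and the lowest summed mural markers, 429.96 CPM, and the part of either in these values was not tested.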

How the results depend on the processing

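No alternative called any of the 10 genes. Over all genes, edgeR called 0, DESeq2 114 (123 without its filter on outlying values), limma with voom 3 and edgeR's likelihood ratio test 38, and edgeR with the replicate block 0, with 266 genes at an unadjusted p under 0.05. The labels did not say whether replicate numbers pair the samples, and this was not settled here. The correlation of same-numbered deviations was −0.017 to 0.149, and replicates 2, 4 and 5 matched their own number best. With either DESeq2 setting 1 gene was called in each of the lists of fibronectin receptors, PDGF genes, retinoic acid genes, mural markers and leukocyte markers. Of the 10 genes 5 had a negative log2 fold change, 7 in limma with voom, 3 with a filter of at least 10 counts in at least 5 replicates, which removed Pdgfra and Fmod, and 3 to 6 when a replicate was left out.

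Directions turned as follows. The log2 fold change was −2.78 for Dcn and −2.96 for Ogn in limma with voom. With the replicate block it was 0.48 for Pdgfra, −1.48 for Dcn, 2.34 for Fmod and −1.13 for Ogn. With the number of detected genes as covariate it was 1.01 for Pdgfra. Leaving out a replicate gave −4.38 to 2.57 for Pdgfra (2.57 without naive replicate 1), −1.96 to 0.64 for Dcn (−1.96 without SCVS replicate 5 and −0.10 without naive replicate 5), −4.63 to 0.15 for Lum and −0.90 to 0.01 for Mgp (both highest without naive replicate 2), and −0.68 to 1.23 for Ogn (lowest without SCVS replicate 3). Differences in mean CPM then ran from −6.46 to 0.405 for Pdgfra, −183 to 107 for Dcn, −104 to 6.38 for Lum, −151 to 3.09 for Mgp and −27.3 to 77.8 for Ogn. On log2(CPM + 1) the difference of means was −1.65 for Dcn, −1.19 for Ogn and 0.0222 for Mgp, and on log2(CPM + 0.1) it was −2.31, −1.88 and 0.0382, with 0.429 for Fn1. The causes were not tested. Fold changes of Aldh1a2, Crabp2 and Slc47a1 stayed above 0 in every alternative run, at 0.83 to 2.81, 0.05 to 1.45 and 1.21 to 6.24. The log2 fold change of Fn1 stayed below 0 in every alternative run, at −1.6 to −0.59. The biological coefficient of variation was 1.59, which limits what 5 replicates a group can show, and fewer cells and less RNA per cell cannot be told apart.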
